A study of Caenorhabditis elegans with 28 samples.

Results

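mRNA levels at opposite phases of the larval oscillation were compared in *ebax-1(tm2321)* animals, with libraries of 21, 22, 28 and 29 h after plating set against libraries of 18, 19, 25 and 26 h. The members were chosen by genotype and hour alone, and they make up 8 of the 28 libraries of the series. All 8 came from strain HW3527, which carries the *tm2321* deletion in *ebax-1* on chromosome IV and received no other treatment. The remaining libraries were 6 of the same strain at 20, 23, 24, 27, 30 and 31 h, and 14 of the wild-type strain N2, 1 for each hour from 18 to 31 h. Whole larvae were sampled from populations that had hatched without food and were then plated as L1 larvae and grown at 25°C. Each hour was a single library of poly(A)-selected RNA and each genotype a single time course, so neighbouring hours share a culture and p-values measure the scatter of hourly libraries around the fitted values.

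*C. elegans* larvae pass through repeated molts, and in each of them the epidermis builds a new cuticle beneath the old one before the old one is shed. A large part of the transcriptome oscillates once per larval stage, and genes for cuticle collagens, for the secreted matrix that precedes the cuticle and for molting proteases peak one after another. EBAX-1, known as ZSWIM8 in mammals, recruits substrates to a ubiquitin ligase of the Cullin-RING type and is known for its part in targeted microRNA degradation. Hours were paired with a period of 7 h, which sets 28 and 29 h beside 21 and 22 h, and 25 and 26 h beside 18 and 19 h. Each group of 4 thus holds a first cycle and a second cycle. The pairing by phase is approximate, since the study reports longer larval stages in this mutant. The groups lie 3 h apart within a cycle.

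Library totals were 7413279 to 7910202 counts at 21/22/28/29 h and 5701773 to 9304062 counts at 18/19/25/26 h, so that 1 CPM, the unit used here for counts scaled to the library total, stood for 5.7 to 9.3 reads. The top 10 genes by count held 4.94% to 5.21% of the counts at 21/22/28/29 h and 5.09% to 5.37% at 18/19/25/26 h. *ebax-1* (WBGene00004140), examined first as a check of the labels, averaged 30.0 CPM in the mutant (17.9 to 49.0, n = 14) and 78.5 CPM in wild type (32.3 to 137, n = 14). The check is partial, since transcripts of the deletion allele can still give reads from the exons that remain. Within the mutant *ebax-1* stood at 21.9, 23.6, 17.9 and 25.9 CPM at 21, 22, 28 and 29 h, against 45.8, 27.8, 39.9 and 23.7 CPM at 18, 19, 25 and 26 h, and the groups overlapped (log2 difference -0.60, SE 0.238, edgeR adjusted p = 0.109). In whole animals, fewer cells that express a gene and less RNA per cell cannot be told apart.

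Which transcripts differed between the opposite phases was asked with edgeR's quasi-likelihood test on the raw counts, with hour as a linear term so that a steady developmental trend would not enter the difference. A gene was called at a Benjamini-Hochberg adjusted p under 0.01, and log2 differences are 21/22/28/29 h minus 18/19/25/26 h after removal of that trend. Of 12271 genes tested, 1377 (11.2%) were called. Of these, 714 (5.82%) were higher at 21/22/28/29 h, with a median log2 difference of 1.23, and 663 (5.4%) were lower, with a median of -1.48. A difference of at least 1 log2 was reached by 443 of the higher and 419 of the lower genes, and at least 2 log2 by 223 and 270 of them. The 4 libraries of one group lay entirely above or below those of the other for 657 of the higher and 607 of the lower genes. Over all genes tested, 1726 (14.1%) had their 21/22/28/29 h libraries above all others and 1273 (10.4%) below. The number of calls rested most on the first-cycle libraries of 21 and 22 h: without the 21 h library 147 genes were called and without the 22 h library 284, while without the 25 h or the 26 h library 604 and 593 were. The direction was kept by all 1377 genes in each of these fits.

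Among called genes with a mean of at least 10 CPM, groups that did not overlap and the same direction in both cycles, the 12 highest differences at 21/22/28/29 h were those of *grl-21*, *pqn-71*, K10H10.4, W03F8.6, *nspb-12*, *fipr-3*, *col-146*, *tyr-2*, *col-39*, C06E8.5, *abu-7* and F33H12.7, with log2 differences of 5.31 down to 4.25. *grl-21* encodes a secreted ground-like protein of the hedgehog-related families (a protein-coding gene of the plus strand of chromosome IV, 10737474 to 10738191 in WBcel235). It stood at 189, 192, 138 and 172 CPM at 21, 22, 28 and 29 h, against 1.93, 1.62, 7.42 and 5.09 CPM at 18, 19, 25 and 26 h. The groups were far apart, with 173 ± 24.9 CPM at 21/22/28/29 h and 4.01 ± 2.76 CPM at 18/19/25/26 h (SD, n = 4 each), and the log2 difference of 5.31 (SE 0.408, edgeR adjusted p = 0.000517) corresponds to 39.7-fold. *col-146*, a cuticle collagen gene on chromosome V (9629943 to 9631012, plus strand), had 374, 407, 484 and 706 CPM at 21, 22, 28 and 29 h, against 7.74, 9.38, 22.5 and 16.1 CPM at 18, 19, 25 and 26 h. Its log2 difference was 4.78 (SE 0.199, edgeR adjusted p = 4.81e-05), and its highest library was the last of the 4. *tyr-2*, which encodes a tyrosinase-type oxidase, had 686, 533, 508 and 432 CPM at 21, 22, 28 and 29 h, against 8.17, 25.4, 20.8 and 37 CPM at 18, 19, 25 and 26 h, again without overlap. F33H12.7 was the least stable of the 12, with 34.8 and 49.7 CPM at 21 and 22 h but 5.80 and 11.9 CPM at 28 and 29 h, against 0.215 to 3.78 CPM at 18/19/25/26 h.

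**Figure D1:**
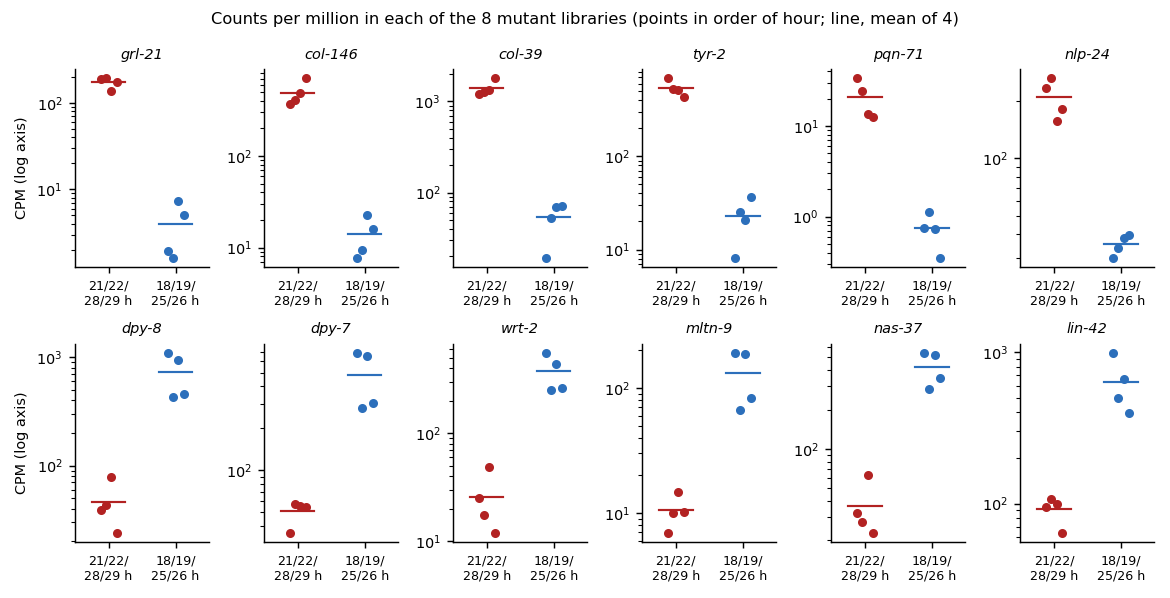
Each panel plots the CPM of 1 gene (log axis) in the 8 mutant libraries, with 21/22/28/29 h in red on the left and 18/19/25/26 h in blue on the right; points follow the order of hour and the line is the mean of 4. The upper row shows genes called higher, such as *grl-21* at 138 to 192 against 1.62 to 7.42 CPM, and the lower row genes called lower, such as *dpy-8* at 24.0 to 78.0 against 427 to 1087 CPM; no panel has overlapping groups.

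By the same rule, the 12 lowest differences belonged to *mltn-1*, *dpy-8*, R07E3.6, T26C5.2, *wrt-2*, M03B6.3, *atf-8*, *mltn-9*, *wrt-1*, K08B12.1, Y102A11A.5 and C01F1.5, from -4.20 to -3.71 log2. *dpy-8*, a collagen of the annular furrows of the cuticle (chromosome X, 5148804 to 5150476, minus strand), had 39, 42.8, 78.0 and 24.0 CPM at 21, 22, 28 and 29 h, against 1087, 427, 932 and 462 CPM at 18, 19, 25 and 26 h. The log2 difference was -4.01 (SE 0.533, edgeR adjusted p = 0.00249), and within both cycles the earlier hour of the 18/19/25/26 h group was the higher one. *wrt-2*, a hedgehog-related warthog gene, had 25.4, 17.5, 48.3 and 12 CPM at 21, 22, 28 and 29 h, against 551, 252, 435 and 263 CPM at 18, 19, 25 and 26 h. *atf-8*, which encodes a bZIP transcription factor, had 2.19, 3.57, 5.26 and 1.26 CPM at 21, 22, 28 and 29 h, against 63.2, 19.6, 60.9 and 24 CPM at 18, 19, 25 and 26 h. The groups did not overlap for any of these 12 genes, which the rule for naming them required. Their calls depended on single libraries more than those of the 12 highest: without the 21 h library 0 of the 12 lowest remained called (edgeR adjusted p 0.0122 to 0.0292, log2 -4.30 to -3.55) and 10 of the 12 highest did. Without the 22 h library these numbers were 2 and 10, and without the 25 h library 6 and 11.

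How the called genes behaved in the 6 mutant hours that did not enter the main test shows their time course between the groups. Relative to the mean of the 8 libraries, the median level of the higher genes was 0.31 log2 at 20 h, 0.50 at 23 h and -0.16 at 24 h, and one cycle later -0.22 at 27 h, 0.47 at 30 h and 0.04 at 31 h. The lower genes ran opposite, with -0.13 at 20 h, -0.19 at 23 h and 0.36 at 24 h, then 0.29 at 27 h and -0.60 at 30 h. The crossing from the lower to the higher set thus lay between 19 and 20 h in the first cycle and between 27 and 28 h in the second. These crossings were more than 7 h apart, so hours paired by 7 h were only nearly equal in phase. The 7 pairs of hours 7 h apart were then ranked over all 14 mutant libraries after removal of a linear trend. The 8 libraries behind the calls are among them, so the selection itself favours their hours. The highest pair was at 22 and 29 h for 448 of the higher genes, at 21 and 28 h for 195 and at 23 and 30 h for 71. Over all 12271 genes tested, these pairs were highest for 2330, 1495 and 2439. Of the lower genes, 413 had it at 18 and 25 h, 195 at 19 and 26 h, 49 at 24 and 31 h, 4 at 20 and 27 h and 2 at 23 and 30 h. Over all genes tested, these pairs were highest for 1690, 1502, 1611, 1204 and 2439, in the same order. Levels also sloped within the hour pairs: 358 of the lower genes stood higher at 21 than at 22 h and higher at 28 than at 29 h, against 108 of the higher genes. The number with this slope over all genes tested was not counted.

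**Figure D2:**
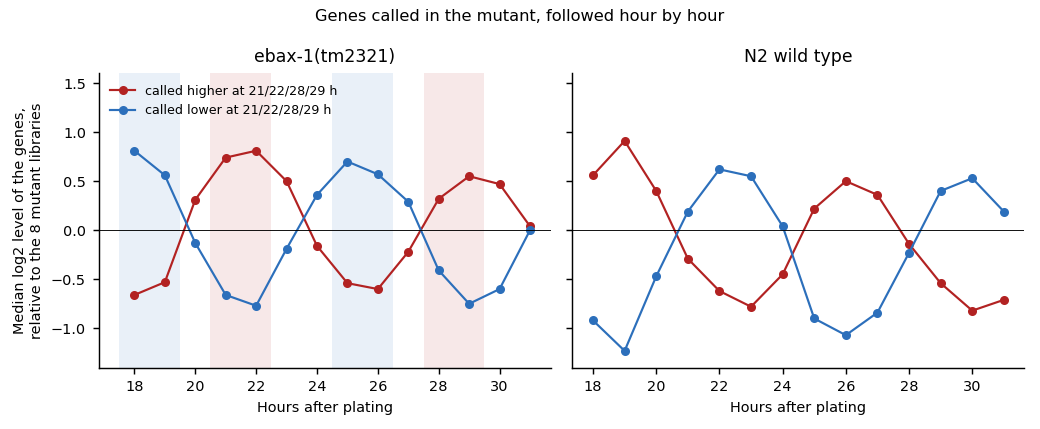
Median log2 level of the 714 genes called higher (red) and the 663 called lower (blue) at each hour after plating, relative to their mean over the 8 mutant libraries, in *ebax-1(tm2321)* on the left and N2 on the right; bands in the mutant panel mark 21/22/28/29 h (red) and 18/19/25/26 h (blue). The higher genes reach 0.81 at 22 h and 0.55 at 29 h in the mutant and 0.91 at 19 h and 0.50 at 26 h in N2.

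The cycles were also compared with each other, by hours 7 h apart. Such hours were only nearly equal in phase, and the part of this in the values below was not tested. All 714 higher genes had the same direction at 21/22 h against 18/19 h as at 28/29 h against 25/26 h, and 662 of the 663 lower genes did, but the calls came from these same libraries, so the selection itself favours this. Over all genes tested, the cycles shared the sign for 9140 of 12271 (74.5%). Log2 CPM values here and in the hourly levels above carry a small offset added to each CPM, which shrinks differences of low genes. Differences within a cycle were taken between means of these values, without removal of the hour trend, unlike the fitted log2 differences above. Their medians were 1.32 log2 in the first cycle and 1.02 in the second for the higher genes, and -1.45 and -1.31 for the lower genes. By the edgeR interaction fit, 582 of the higher and 496 of the lower genes had the smaller difference in the second cycle. Fitted alone with edgeR, the first cycle called 96 of 12512 genes (3981 at an unadjusted p under 0.05) and the second cycle 0 of 12308 (2693 at an unadjusted p under 0.05, lowest adjusted p = 0.0198). A test of the phase-by-cycle interaction called 0 of 12271 genes (0.0%, lowest edgeR adjusted p = 0.646), with 726 at an unadjusted p under 0.05, 3 called by DESeq2 and 0 by limma. The smallest interaction p-values included *grl-21*, whose difference was 6.40 log2 in the first and 4.54 in the second cycle, and *pgp-9*, an ABC transporter gene of the P-glycoprotein family. *pgp-9* had 211, 240, 92.4 and 123 CPM at 21, 22, 28 and 29 h, against 33.1, 39.6, 44.5 and 43.3 CPM at 18, 19, 25 and 26 h. *srlf-34* had 128 and 136 CPM at 21 and 22 h but 23.6 and 29.6 CPM at 28 and 29 h, against 3.55 to 10.6 CPM at 18/19/25/26 h. These genes did not pass the interaction test.

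Cuticle collagens fell into opposite sets. Counts of called members, here and in the lists below, are to be read beside 5.82% higher and 5.4% lower over all genes tested. All 6 furrow collagens, which shape the circumferential furrows of the cuticle, were lower at 21/22/28/29 h, with log2 differences of -4.01 to -3.19 (*dpy-2*, *dpy-3*, *dpy-7*, *dpy-8*, *dpy-9*, *dpy-10*). *dpy-7* had 35.8, 57.5, 55.8 and 55 CPM at 21, 22, 28 and 29 h, against 687, 277, 659 and 305 CPM at 18, 19, 25 and 26 h. All 6 had their highest hour pair at 18 and 25 h. Of 11 body-shape collagens tested, 0 were higher and 4 lower, with a list median of -2.47 log2 beside -0.002 for all genes tested. They were *lon-3*, *sqt-1*, *sqt-3* and *bli-2*. *sqt-3*, an abundant collagen, had 779, 405, 1154 and 260 CPM at 21, 22, 28 and 29 h, against 4088, 4116, 3234 and 3970 CPM at 18, 19, 25 and 26 h. For *bli-2*, a collagen of the struts of the adult cuticle, the groups overlapped, with 0.129, 0.0, 1.75 and 0.885 CPM at 21, 22, 28 and 29 h, against 0.537, 1.45, 11.8 and 8.07 CPM at 18, 19, 25 and 26 h. Its call rests on the removal of the hour trend. Calls for 0 of the 6 furrow and 0 of the 11 body-shape collagens were left without the 21 h library, and for 0 and 1 without the 22 h library. The body-shape count was 1 without the 25 h or the 26 h library, 2 without the 18 h or the 19 h library and 7 without the 28 h library.

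The numbered *col* genes went both ways, with 12 higher and 9 lower of 89 tested and a median of 1.04 log2. Besides *col-146*, the higher ones included *col-39*, *col-160*, *col-93* and *col-92*. *col-39* had 1201, 1272, 1326 and 1794 CPM at 21, 22, 28 and 29 h, against 19.3, 53.0, 70.4 and 71.6 CPM at 18, 19, 25 and 26 h. *col-160* had 941, 1193, 1159 and 1850 CPM at 21, 22, 28 and 29 h, against 40.6, 45.1, 118 and 98.0 CPM at 18, 19, 25 and 26 h. In each of these groups the 29 h library was the highest. The lower ones included *col-128*, with 3.74, 8.03, 12 and 6.95 CPM at 21, 22, 28 and 29 h, against 130, 49.5, 123 and 58.6 CPM at 18, 19, 25 and 26 h. *col-46* and *col-153* were lower by -3.66 and -3.12 log2. Called or not, 34 of the 89 had their 21/22/28/29 h libraries above all others and 12 had them below, beside 14.1% and 10.4% of all genes tested. Summed over the list, 27248 to 41438 CPM at 21/22/28/29 h stood against 11212 to 26926 CPM at 18/19/25/26 h. Without the 21 h library 4 were higher and 0 lower, without the 22 h library 4 and 1, without the 25 h library 6 and 3, without the 26 h library 9 and 5, without the 28 h library 11 and 14, and without the 29 h library 7 and 9. The sources used here do not say how reads shared by near-identical genes were counted, so values of single *col*, *clec*, *abu*, *pqn*, *nspb* and *fipr* genes are uncertain.

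Of 16 genes for enzymes that cross-link or process collagens, 3 were higher and 5 lower (median -0.29 log2). *skpo-3*, a peroxidase gene, had 296, 330, 227 and 294 CPM at 21, 22, 28 and 29 h, against 19.7, 37.8, 33.0 and 34.4 CPM at 18, 19, 25 and 26 h. *mlt-7*, a heme peroxidase gene needed for cuticle assembly, had 396, 356, 306 and 278 CPM at 21, 22, 28 and 29 h, against 27.5, 58.4, 46.7 and 55.9 CPM at 18, 19, 25 and 26 h. *doxa-1*, the maturation factor of the dual oxidase, was higher by 1.63 log2 (SE 0.165, edgeR adjusted p = 0.00118). *dpy-18* and *phy-2*, the catalytic subunits of prolyl 4-hydroxylase, and their partner *pdi-2* were lower by -1.25, -1.58 and -1.03 log2. *dpy-11*, a thioredoxin-like protein of the epidermis, had 157, 165, 234 and 200 CPM at 21, 22, 28 and 29 h, against 637, 445, 709 and 575 CPM at 18, 19, 25 and 26 h. *phy-4*, another prolyl 4-hydroxylase gene, was lower too but never exceeded 2.46 CPM in these 8 libraries. Of these enzymes 2 were higher and 1 lower without the 21 h library, and 3 and 2 without the 22 h or the 25 h library.

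**Figure D3:**
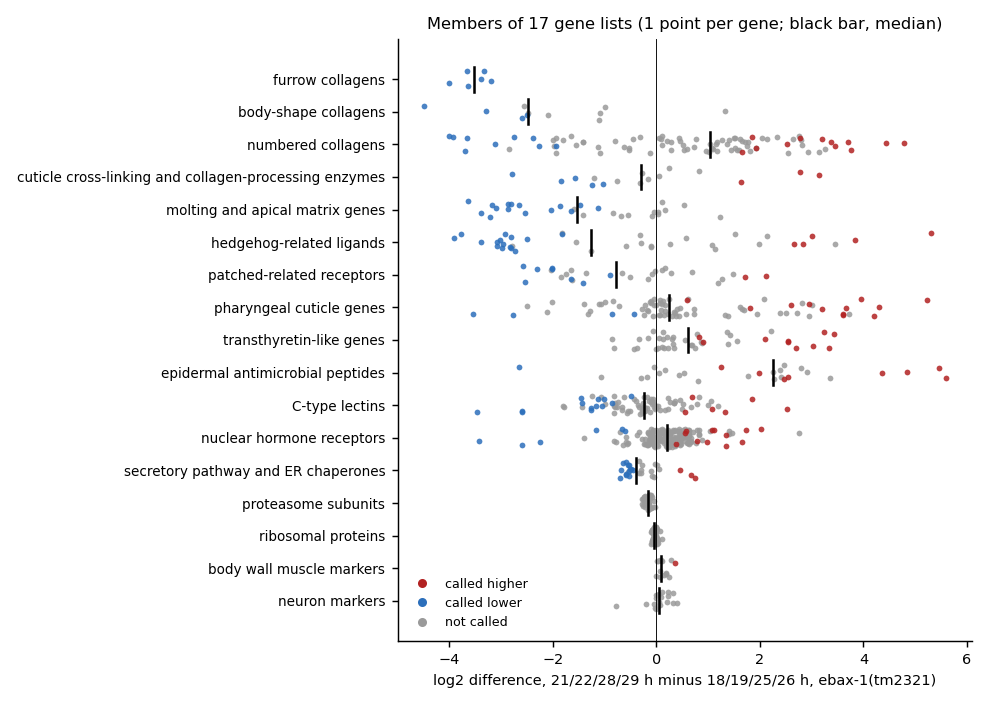
Log2 difference of 21/22/28/29 h minus 18/19/25/26 h in the mutant for every tested member of 17 gene lists, 1 point per gene, with genes called higher in red, called lower in blue and not called in grey; the black bar is the list median. Furrow collagens lie between -4.01 and -3.19, numbered collagens run from -4.01 to 4.78, and ribosomal and proteasome genes stay near 0.

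Genes of molting and of the apical matrix, the layer that forms before the cuticle, were lower at 21/22/28/29 h in 15 of 28 cases and higher in 0, with a median of -1.53 log2. They included the lipocalin-related *lpr-1*, *lpr-3* and *lpr-4*, the zona pellucida proteins *noah-1* and *noah-2*, the Kunitz-type protease inhibitor *mlt-11*, *mlt-9*, *mlt-10* and the megalin-related receptor *lrp-1*. *lpr-4* had 38.5, 57.6, 61.5 and 44.8 CPM at 21, 22, 28 and 29 h, against 871, 314, 852 and 387 CPM at 18, 19, 25 and 26 h. *mlt-9* had 50.3, 33.8, 76.6 and 28.3 CPM at 21, 22, 28 and 29 h, against 535, 385, 433 and 360 CPM at 18, 19, 25 and 26 h. Both were separated by a wide gap. *acn-1*, an angiotensin-converting-enzyme-like gene, was lower by -2.66 log2 (SE 0.281, edgeR adjusted p = 0.00126). Without the 21, 22, 25 or 26 h library 1, 3, 4 or 9 of these genes were called lower. Of 39 astacin, ADAMTS and matrix metalloproteases, 0 were higher and 2 lower (median 0.34 log2). The lower count is near the share of all genes tested (5.4%). Called or not, 11 of the 39 had their 21/22/28/29 h libraries above all others and 4 had them below, beside 14.1% and 10.4% of all genes tested. *nas-37*, the astacin that acts when the old cuticle is shed, had 32.6, 27.8, 63.1 and 22.9 CPM at 21, 22, 28 and 29 h, against 538, 289, 520 and 350 CPM at 18, 19, 25 and 26 h. *nas-4* was lower by -2.89 log2. Neither was called without the 21 h or the 22 h library. The zona pellucida *cutl* and *dyf* genes were mixed, with 2 higher and 3 lower of 29 (median -0.12 log2), *cutl-23* at 2.51 and *cutl-17* at -2.61 log2 among them. Their higher count is near the share of all genes tested (5.82%). Without the 21 h or the 22 h library 0 were called in either direction, without the 25 h library 1 was higher and 1 lower, and without the 26 h library 1 and 0.

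Hedgehog-related genes, which in *C. elegans* encode secreted proteins, many of them made by the epidermis, also split between the phases. Of 37 ligand genes tested, 5 were higher and 15 lower, with a median of -1.26 log2. Higher were *grl-21*, *grl-4*, *grd-3*, *grd-10* and *grd-13*. *grd-13* had 217, 222, 158 and 161 CPM at 21, 22, 28 and 29 h, against 11.5, 32.5, 17.3 and 31.6 CPM at 18, 19, 25 and 26 h. *grl-4* had 647, 458, 370 and 271 CPM at 21, 22, 28 and 29 h, against 4.73, 55.9, 17 and 46.7 CPM at 18, 19, 25 and 26 h. Among the lower genes were 4 warthog genes, with *wrt-1* at 29.0, 17.2, 51.5 and 15.3 CPM at 21, 22, 28 and 29 h, against 496, 295, 406 and 286 CPM at 18, 19, 25 and 26 h. *qua-1* was lower by -3.39 log2 and *grl-10* by -3.02 log2. The Patched-related receptors had 2 higher and 8 lower of 28 (median -0.79 log2). *ptr-12* and *ptr-13* were higher by 2.11 and 1.72 log2, while *ptr-4* had 58.8, 72.3, 70.5 and 64.3 CPM at 21, 22, 28 and 29 h, against 531, 293, 433 and 310 CPM at 18, 19, 25 and 26 h. *ptc-3*, a homolog of Patched itself, was lower by -2.02 log2 (SE 0.266, edgeR adjusted p = 0.00242). Only 2 ligand genes were higher and 0 lower without the 21 h library, and 0 receptor genes higher and 1 lower. Without the 22 h library 2 ligand genes were higher and 1 lower, and 2 receptor genes higher and 2 lower. Without the 25 h or the 26 h library 5 ligand genes were lower, and 5 and 3 receptor genes.

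The list named for the pharyngeal cuticle, the lining of the feeding organ, takes in *abu*, *pqn* and *idpp* genes. Whether each member belongs to that cuticle was not checked. These genes had 12 higher and 4 lower of 76 tested, with 60 not called (median 0.24 log2). Their lower count is near the share of all genes tested (5.4%). The higher ones were *abu-6*, *abu-7*, *abu-10*, *abu-15*, *pqn-2*, *pqn-36*, *pqn-37*, *pqn-71*, *pqn-72*, *pqn-89*, *pqn-94* and *idpp-14*. *pqn-71* had 33.6, 24.5, 13.6 and 12.5 CPM at 21, 22, 28 and 29 h, against 0.752, 1.13, 0.727 and 0.351 CPM at 18, 19, 25 and 26 h. *idpp-14*, a disordered pharyngeal protein gene, had 67.9, 93.1, 35.3 and 79.9 CPM at 21, 22, 28 and 29 h, against 5.91, 2.75, 10.9 and 1.4 CPM at 18, 19, 25 and 26 h. Its relative *idpp-1* went the other way, with 11.1, 20.8, 25 and 24.4 CPM at 21, 22, 28 and 29 h, against 296, 115, 292 and 128 CPM at 18, 19, 25 and 26 h. Without the 21 h or the 22 h library 1 of the list was higher and 0 lower, without the 25 h library 5 and 0, without the 26 h library 6 and 2, and without the 29 h library 7 and 2. The number of lower genes was 2 without the 19 h library and 7 without the 28 h library. Transthyretin-like genes, a large family of secreted nematode proteins, were higher in 10 of 42 cases and lower in 0 (median 0.62 log2). *ttr-33* had 84.1, 68.7, 41.0 and 41.2 CPM at 21, 22, 28 and 29 h, against 8.49, 15, 6.98 and 14 CPM at 18, 19, 25 and 26 h. *ttr-8* and *ttr-32* were higher by 3.44 and 3.33 log2. The count of 10 was 1 without the 21 h or the 22 h library, 3 without the 26 h, 5 without the 18 h and 6 without the 19 h or the 29 h library.

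The list named for antimicrobial peptides of the epidermis, known for their induction by wounding and fungal infection, takes in *nlp*, *cnc* and *fipr* genes. Whether each member is such a peptide was not checked. These genes were higher in 8 of 27 cases and lower in 1, with the highest list median of 2.25 log2. *nlp-24* had 236, 264, 157 and 182 CPM at 21, 22, 28 and 29 h, against 30.0, 33.8, 38.3 and 39.6 CPM at 18, 19, 25 and 26 h. *nlp-29* had 82.8, 81.8, 45.9 and 41.5 CPM at 21, 22, 28 and 29 h, against 23.3, 18.8, 17.2 and 13.9 CPM at 18, 19, 25 and 26 h. The caenacin gene *cnc-8* had 84.8, 86.4, 66.4 and 66.1 CPM at 21, 22, 28 and 29 h, against 11.7, 12.4, 18.9 and 11 CPM at 18, 19, 25 and 26 h. All 3 were without overlap and stood higher in the first cycle than in the second at 21/22/28/29 h. Its relative *cnc-3* was the exception, with 7.22, 6.88, 11.1 and 6.95 CPM at 21, 22, 28 and 29 h, against 57.8, 35.1, 52.6 and 42.4 CPM at 18, 19, 25 and 26 h. *fipr-3*, *fipr-4*, *fipr-6* and *fipr-7* were higher by 4.35 to 5.60 log2, but *fipr-7* held no count at 19 and 26 h. Of the list, 4 were higher without the 21 h or the 22 h library and 14 without the 28 h library. C-type lectins, secreted or membrane proteins of innate immunity and other roles, had 6 higher and 13 lower of 85 (median -0.24 log2). Their higher count is near the share of all genes tested (5.82%). *clec-4* had 89.7, 102, 50.3 and 68.0 CPM at 21, 22, 28 and 29 h, against 11, 11.8, 17.7 and 13.5 CPM at 18, 19, 25 and 26 h. *clec-180* went the other way with 34.3, 28.9, 62.7 and 26.8 CPM at 21, 22, 28 and 29 h, against 519, 255, 478 and 298 CPM at 18, 19, 25 and 26 h. In the lectin list 1 gene was higher and 3 were lower without the 21 h or the 22 h library, 3 and 6 without the 25 h library, and 2 and 8 without the 26 h library.

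Of 10 regulators of the larval oscillator, which are transcription factors and the Period homolog *lin-42*, 2 were lower (*lin-42* and *grh-1*) and 0 higher. *lin-42* (chromosome II, 1233236 to 1252359, minus strand) had 95.2, 107, 99.7 and 64.2 CPM at 21, 22, 28 and 29 h, against 981, 497, 659 and 396 CPM at 18, 19, 25 and 26 h. The log2 difference was -2.62 (SE 0.281, edgeR adjusted p = 0.00133). *grh-1*, the Grainyhead factor of epidermal barriers, had 24.5, 17.6, 23.5 and 8.22 CPM at 21, 22, 28 and 29 h, against 126, 83.3, 81.0 and 70.3 CPM at 18, 19, 25 and 26 h. Neither of the pair was called without the 21 h library and 1 was without the 22 h, the 25 h or the 26 h library. The zinc finger gene *bed-3* had 42.6, 24.6, 62.6 and 21.4 CPM at 21, 22, 28 and 29 h, against 120, 193, 76.4 and 139 CPM at 18, 19, 25 and 26 h. The groups did not overlap, but the difference of -1.78 log2 missed the threshold (edgeR adjusted p = 0.0288), as did that of *blmp-1* (-0.58 log2, adjusted p = 0.0181).

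For *nhr-23*, *myrf-1* and *elt-3* each group combined a high and a low hour. *nhr-23*, a nuclear receptor required for molting, had 51.7, 77.6, 40.9 and 89.6 CPM at 21, 22, 28 and 29 h, against 93.7, 32.3, 95.1 and 40.5 CPM at 18, 19, 25 and 26 h. It was highest outside both groups, at 137 CPM at 23 h and 138 CPM at 31 h, and its log2 difference was -0.09 (SE 0.456, edgeR adjusted p = 0.923). *myrf-1*, a membrane-bound transcription factor, had 250, 358, 209 and 327 CPM at 21, 22, 28 and 29 h, against 505, 268, 464 and 266 CPM at 18, 19, 25 and 26 h. It reached 557 CPM at 23 h and 553 CPM at 24 h. *elt-3*, an epidermal GATA factor, peaked at 23 h with 77.1 CPM and differed by 0.10 log2 between the groups. *nhr-25* was highest at 20 h (82.9 CPM) and differed by 0.05 log2. The groups thus leave differences of these 4 genes between other hours unmeasured. *nhr-85* (0.52 log2, adjusted p = 0.0706) and *myrf-2* (0.23 log2, adjusted p = 0.0324) were not called.

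**Figure D4:**
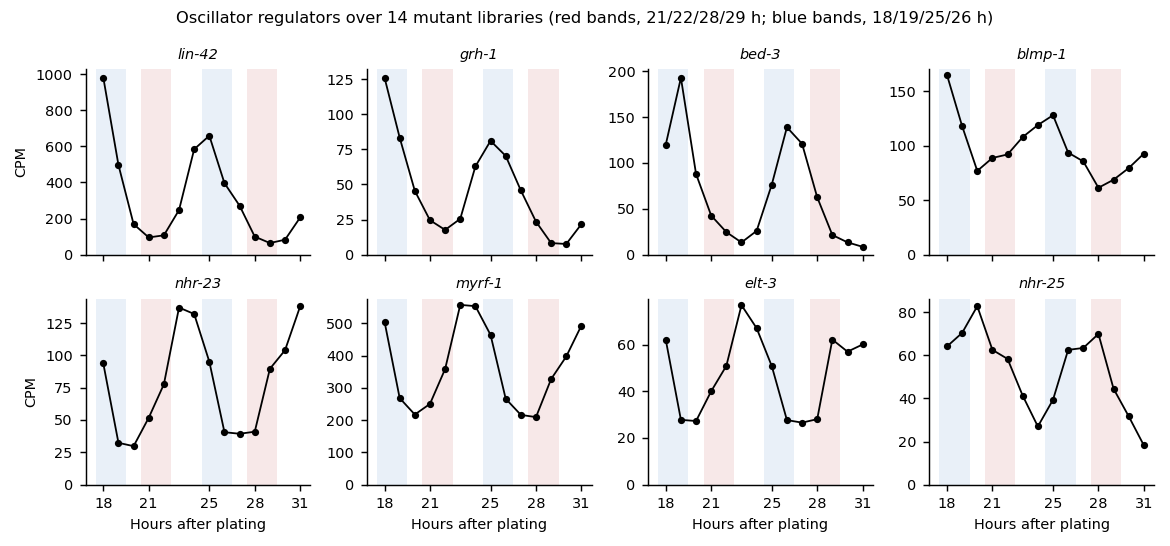
CPM of 8 oscillator regulators at each of the 14 mutant hours after plating, with red bands over 21/22/28/29 h and blue bands over 18/19/25/26 h; each point is 1 library. *lin-42* and *grh-1* are low in the red bands and high in the blue ones, whereas *nhr-23*, *myrf-1* and *elt-3* move through both bands on a slope and stand highest at or next to 23 h in the first cycle.

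Other regulators showed smaller groups of calls. Of 184 nuclear hormone receptors, 12 were higher and 6 lower (median 0.21 log2), which is near the shares of all genes tested (5.82% and 5.4%). *nhr-53* had 6.18, 6.50, 3.78 and 4.68 CPM at 21, 22, 28 and 29 h, against 1.61, 2.42, 0.727 and 1.4 CPM at 18, 19, 25 and 26 h, and *nhr-113* was lower by -2.24 log2. Receptor calls numbered 0 without the 21 h library, without the 22 h library 0 were higher and 1 lower, without the 25 h library 3 and 1, without the 26 h library 2 and 3, and without the 29 h library 7 and 3. Of 14 heterochronic genes, which order the larval stages, *lin-29* (-1.51 log2), *alg-1* (-0.69 log2) and *lin-42* were lower and *lin-14* (0.48 log2) higher, the groups of *lin-14* overlapping between the cycles. The higher count is near the share of all genes tested (5.82%). *lin-29*, a zinc finger factor of the larval-to-adult switch, had 22.2, 28.8, 56.4 and 44.5 CPM at 21, 22, 28 and 29 h, against 55.7, 38.2, 123 and 93.3 CPM at 18, 19, 25 and 26 h. Its groups overlapped across cycles but not within them. *alg-1*, an Argonaute of the microRNA pathway, had 218, 204, 194 and 192 CPM at 21, 22, 28 and 29 h, against 442, 312, 336 and 269 CPM at 18, 19, 25 and 26 h, and it was the 1 gene called among 21 of microRNA biogenesis and turnover (median -0.08 log2). That call was lost without the 21, 22, 25, 26, 28 or 29 h library, and 1 of 21 is near the lower share of all genes tested (5.4%). Heterochronic calls numbered 0 without the 21 h library, and without the 22, 25 or 26 h library 0 were higher and 1 was lower. The call of *lin-14* was also lost without the 18, 19 or 29 h library. Of 32 genes of DNA replication and the cell cycle, *air-1* and *knl-1* were lower and *cki-1* higher (median -0.23 log2), and the groups of *air-1* and *knl-1* overlapped. These counts are near the shares of all genes tested (5.82% higher and 5.4% lower). *cki-1*, an inhibitor of cyclin-dependent kinases, had 16.9, 20.1, 20.8 and 22.2 CPM at 21, 22, 28 and 29 h, against 8.60, 7.92, 8.0 and 8.59 CPM at 18, 19, 25 and 26 h, and was called without any single library, while the lower genes numbered 0 without the 21 h library and 1 without the 18, 19, 22, 25, 26 or 29 h library.

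Genes of the secretory pathway had 13 lower and 3 higher of 28, with 12 not called and differences from -0.71 to 0.75 log2 (median -0.40). Lower were genes of the COPI coat (*copa-1*, *copb-1*, *copb-2*, *copg-1*) and the COPII coat (*sec-23*, *sec-24.1*), of the Sec61 channel (*sec-61.A*, *sec-61.G*), of the translocon-associated complex (*trap-1*, *trap-2*, *trap-4*), *tfg-1* and *tmed-1*. *copg-1* had 205, 217, 219 and 209 CPM at 21, 22, 28 and 29 h, against 322, 293, 305 and 275 CPM at 18, 19, 25 and 26 h (log2 difference -0.53, SE 0.0711, edgeR adjusted p = 0.00256). The 3 higher genes all belong to the unfolded protein response of the endoplasmic reticulum. *hsp-4*, which encodes a BiP chaperone, had 318, 300, 373 and 378 CPM at 21, 22, 28 and 29 h, against 168, 175, 182 and 207 CPM at 18, 19, 25 and 26 h. *xbp-1*, the transcription factor of this response, had 625, 587, 596 and 515 CPM at 21, 22, 28 and 29 h, against 347, 404, 313 and 392 CPM at 18, 19, 25 and 26 h, and the sensor *ire-1* was higher by 0.45 log2. Secretory genes had 0 calls in either direction without the 21 h library, without the 22 h library 1 was higher and 0 lower, without the 25 h library 1 and 3, without the 26 h library 2 and 1, and without the 29 h library 5 were lower.

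In lipid metabolism, *sbp-1*, the SREBP factor that drives fatty acid synthesis genes, was higher, while 4 of 21 genes of fatty acid synthesis, elongation and desaturation were lower (median -0.39 log2). *sbp-1* had 67.4, 73.9, 63.8 and 66.5 CPM at 21, 22, 28 and 29 h, against 29.7, 37.5, 34.8 and 43.0 CPM at 18, 19, 25 and 26 h. *fat-6*, a stearoyl-CoA desaturase gene, had 458, 444, 548 and 514 CPM at 21, 22, 28 and 29 h, against 694, 721, 679 and 708 CPM at 18, 19, 25 and 26 h, and the elongase *elo-4* was lower by -2.76 log2. *elo-3* and *elo-6* were lower by -0.81 and -0.39 log2, with overlapping groups for *elo-6*. Without the 21 h library 0 of these were called, without the 22 h library 0 were higher and 1 lower, without the 25 h library 0 and 3, without the 26 h library 1 and 0, and without the 29 h library 2 were lower. Of 16 basement membrane genes, the peroxidasin *pxn-1* (0.88 log2) and the fibulin *fbl-1* (0.59 log2) were higher and 0 lower, and neither was called without the 21 h or the 22 h library.

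Lists that bear on the makeup of the sampled animals had few calls. Ribosomal protein genes had 0 of 76 called, with differences from -0.11 to 0.10 log2, proteasome subunits 0 of 31 (median -0.16 log2) and vacuolar ATPase subunits 0 of 21 (median 0.02 log2). The proteasome differences were small but all negative, from -0.27 to -0.03 log2. For 7 of the 31 the 21/22/28/29 h libraries lay below all others, beside 10.4% of all genes tested. Of 14 body wall muscle markers, *unc-89* was higher by 0.36 log2 and 0 were lower, 8 of the 14 had their 21/22/28/29 h libraries above all others (14.1% over all genes tested), and the summed level of the list was 19923 to 21505 CPM at 21/22/28/29 h against 18085 to 18856 CPM at 18/19/25/26 h. Neuron markers had 0 of 20 called (1022 to 1467 against 1073 to 1496 CPM summed) and germ line markers 0 of 17 (1017 to 2095 against 787 to 1493 CPM). Of 9 sperm and 16 vulva genes tested, 0 were called. Intestine markers had the intermediate filament gene *ifb-2* higher by 0.61 log2 and the cathepsin B gene *cpr-1*, whose groups overlapped, lower by -1.32 log2 of 10 tested (7292 to 8244 against 6357 to 6954 CPM summed). The muscle and intestine markers had 0 calls without the 21 h or the 22 h library. The part of the muscle and intestine levels in the results above was not tested.

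The wild-type counterpart was taken from N2 libraries of 18/19/25/26 h, at the stage of the mutant 3 h later, against those of 22/23/29/30 h, 1 cycle after the stage of the mutant at 18/19/25/26 h. Fitted alone, it called 583 of 12249 genes (4.76%), 232 higher and 351 lower. Without single libraries the wild-type count was between 123 (22 h) and 386 (19 h), and it was 261 without the 25 h and 235 without the 26 h library. In both genotypes 459 genes were called, which is 33.3% of the mutant and 78.7% of the wild-type calls, and all 459 had the same direction. Over all mutant calls tested in wild type, the difference was larger in wild type for 306 of 699 higher genes (wild-type median 1.12 log2) and for 468 of 646 lower genes (wild-type median -1.66 log2). The N2 hours are spaced differently from the mutant hours, and within a cycle the N2 hours of 22/23/29/30 h follow those of 18/19/25/26 h. Sizes are therefore not like for like between genotypes, and the part of the spacing in them was not tested. List medians differed in both directions. For the furrow collagens the median was -3.52 log2 in the mutant and -4.75 in wild type, for the molting and apical matrix genes -1.53 and -2.0, and for the numbered collagens 1.04 and 1.82. For the transthyretin-like genes it was 0.62 in the mutant and 0.24 in wild type, for the hedgehog-related ligands -1.26 and -0.98, and for the antimicrobial peptide list 2.25 and 2.07. *dpy-8* differed by -4.01 log2 in the mutant and by -5.38 log2 in wild type (edgeR adjusted p = 0.000934), and *lin-42* by -2.62 and -3.27 log2. Of the genes called in the mutant and tested in wild type, 690 of 699 higher and 644 of 646 lower ones had the same sign at matched stages. The share with the same sign over all 11976 genes tested in both genotypes was not counted.

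Whether the phase difference itself differed between genotypes was tested in the 16 libraries together, and 0 of 13038 genes were called (0.0%, lowest edgeR adjusted p = 0.139). At an unadjusted p under 0.05 there were 786 genes, and DESeq2 called 12 and limma 0. The smallest p-values included *ctl-3* and *ctl-2*, catalase genes that lie next to each other on chromosome II and resemble each other in sequence. *ctl-2* was higher at 21/22/28/29 h in the mutant, with 242, 260, 141 and 177 CPM at 21, 22, 28 and 29 h against 96.7, 132, 96.9 and 102 CPM at 18, 19, 25 and 26 h. In N2 it had 158, 168, 123 and 129 CPM at 18, 19, 25 and 26 h, against 138, 135, 142 and 126 CPM at 22, 23, 29 and 30 h, which overlap (log2 difference -0.06). The difference between genotypes was 1.09 log2 for *ctl-2* and 2.06 log2 for *ctl-3* and passed for neither (edgeR adjusted p = 0.242 and 0.139). *ifo-1*, an organizer of intestinal filaments, was higher by 0.56 log2 in the mutant and by 1.36 log2 in wild type, a difference that did not pass either (adjusted p = 0.242).

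**Figure D5:**
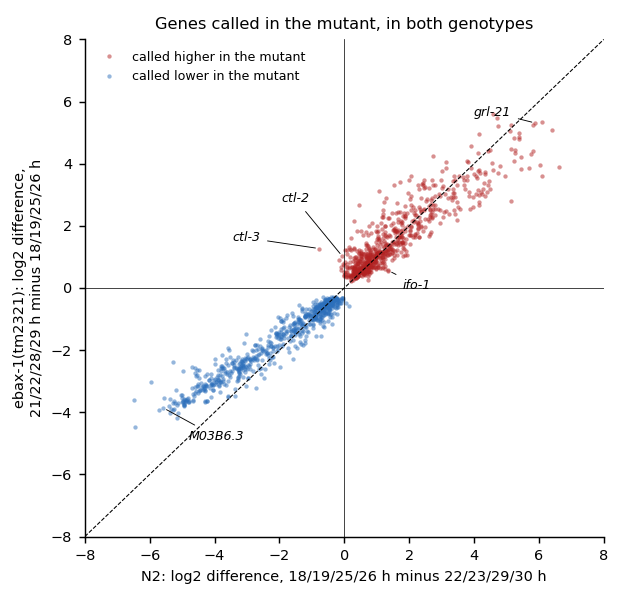
Log2 difference in the mutant (21/22/28/29 h minus 18/19/25/26 h, vertical) against that in N2 at matched stages (18/19/25/26 h minus 22/23/29/30 h, horizontal) for genes called higher (red) or lower (blue) in the mutant and tested in N2; the dashed line marks equal values. Of these genes 690 of 699 and 644 of 646 share the sign, and *ctl-3* lies at 1.27 in the mutant and -0.78 in N2.

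At the same clock hours the comparison ran the other way in wild type. Given the reported delay of about 3 h and a period of 7 h, these hours fall at different stages in mutant and N2. A reversal was thus built into the choice of hours, and it is no measure of genotype at a given stage. With N2 at 21/22/28/29 h minus N2 at 18/19/25/26 h, which shares the N2 libraries of 18/19/25/26 h with the matched-stage comparison, 689 of 703 higher and 608 of 615 lower genes had the opposite sign, with medians of -0.89 and 1.2 log2. *dpy-8* differed by -4.01 log2 in the mutant and by 5.37 log2 in wild type at these hours, and *grl-21* by 5.31 and -4.36 log2.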

How the data were processed

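Poly(A) RNA of 28 hourly libraries was sequenced. Per the labels and the study's methods, the authors aligned reads to ce10 with HISAT2 through QuasR and deposited raw counts per WS220 gene, first reads of pairs counted on the opposite strand. Tool versions and the treatment of reads with several matches are not given in the sources used here. The deposited log2 values were counts scaled to the mean library total with a pseudocount of 8, and served only as an alternative. Genes were named from the given tables (19182 of 20392 IDs matched), and positions are those of WBcel235, not of the counting build.

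Genes were filtered with filterByExpr, scaled by TMM and tested with edgeR 4.0.16 in R 4.3.3 (quasi-likelihood, hour as a linear term, Benjamini-Hochberg adjustment over all genes tested). DESeq2 1.42.0, limma 3.58.1, other scalings and time terms and the omission of each library were alternatives. Scripts were tested on simulated data. Named were the 12 highest and 12 lowest called genes with a mean of at least 10 CPM, no overlap and the same direction in both cycles, all oscillator factors, *ebax-1*, up to 5 called members per list and direction, and 8 genes per direction of the cycle and genotype tests. Other list members were named after their values were seen. Members and lists were chosen with earlier results of these data known. Promoter motifs were not analysed here.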

Additional observations from a re-analysis of the deposited data

Results flagged for a closer look

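Among named genes, 5 of 292 groups of 4 libraries held a library far from the other 3, while chance alone flags about 1 in 20 groups. At 21/22/28/29 h these were *dpy-7* with 35.8 CPM at 21 h (others 55 to 57.5 CPM), *cnc-3* with 11.1 CPM at 28 h (others 6.88 to 7.22 CPM) and *fbl-1* with 34.3 CPM at 28 h (others 31.4 to 31.9 CPM). At 18/19/25/26 h they were *sqt-3* with 3234 CPM at 25 h (others 3970 to 4116 CPM) and *cutl-28* with 22.7 CPM at 18 h (others 13.6 to 14.3 CPM).

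At the same clock hours the phase difference differed between *ebax-1(tm2321)* and N2 for 2787 of 12989 genes (edgeR interaction test, adjusted p under 0.01), whereas at matched stages 0 of 13038 did. The same clock hours fall at different stages in mutant and N2. A large count was thus built into the choice of hours and is no measure of genotype at a given stage.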

How the results depend on the processing

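Each hour was 1 library, 5.7 to 9.3 reads stood for 1 CPM, and levels near or below 1 CPM are imprecise. With other scalings, no filter on low counts, limma, a factor for the cycles or no time term, the mutant comparison called 1227 to 1708 genes. DESeq2 called 2175 (1135 higher, 1040 lower), and the fit of all 14 mutant libraries 1103 higher genes. Without single libraries the mutant count was 147 to 1556 (113 to 786 higher, 34 to 770 lower) and the wild-type count 123 to 386. In wild type DESeq2 called 1543 genes, a factor for the cycles 1506 and no time term 912. DESeq2 called 3 genes for the interaction with cycle and 12 for the difference between genotypes, which numbered 2787 at the same clock hours, where stages were not matched. Fits of the first and second cycle alone, chosen after seeing the data, called 96 and 0 genes. These counts lie beside 1377 mutant and 583 wild-type calls, and apart from the smaller number of libraries in some fits, the cause was not tested. All 1377 genes kept their direction in each other fit of both cycles except for 1 gene with a factor for the cycles and 1 with no time term, and 1375 of 1376 did in either cycle alone. Of 3185 values of named genes under alternatives, 675 lost their call. These values include named genes that were not called in the main fit and had no call to lose. Some of those changed sign between the cycles, such as *nhr-6*, at -0.10 log2 in the main fit. By mean log2 CPM it differed by 1.41 in the first cycle and by -0.22 in the second. The labels carry no replicate numbers to pair, and the factor for the cycles is the 1 blocked fit that was run. The promoter motif description was not run.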

Other observations

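The called genes were unevenly spread over the chromosomes. On chromosome V 8.57% of 2381 genes tested were higher at 21/22/28/29 h and 4.96% lower, on chromosome X 6.74% and 7.62% of 1810, and on chromosome I 3.35% and 4.57% of 1970. Genes of one family often lie side by side, and the spread was not tested.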
